A study of Mus musculus with 9 samples.

Results

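Gene expression in the mouse retina was compared between eyes given 10 μg of anti-C5 antibody and control eyes, 7 days after the injection into the vitreous. The comparison took the 3 arrays labelled with the 10 μg dose and the 3 arrays labelled as control, which are 6 of the 9 arrays of the series, and all 41345 probe sets on them. The remaining 3 arrays, of eyes given 1 μg, helped to estimate the spread and show where a value at the lower dose lay. The 10 μg dose was chosen by the study to look for toxicity to the normal retina.

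The 10 μg group received 10 μg of an antibody against mouse complement component 5 (C5) in 1 μL of PBS. It is a chimeric antibody, with a chicken variable fragment joined to murine IgG1, that binds the MG4 domain of C5. The control group received 1 μL of PBS according to the sample labels, and an IgG1 isotype antibody according to the methods of the study, so the content of the control injection is not settled. All groups were male C57BL/6 mice aged 6 weeks with no laser injury. Each array holds pooled RNA of 4 retinas from 4 mice, and the sources do not settle if mice are shared between pools, so the p-values measure only the spread between pools. In a whole retina, fewer cells of a type and less RNA per cell cannot be told apart.

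C5 is the complement component that convertases split into C5a, which attracts and activates phagocytes through its receptor, and C5b, which starts the membrane attack complex. The retina is mostly rod photoreceptors by cell number, with cones, bipolar, amacrine, horizontal and ganglion cells, Müller glia and resident microglia. MicroRNAs, the group that stood out here, are cut from longer primary transcripts through a hairpin precursor, and the mature strand binds target mRNAs mainly through its seed, bases 2 to 8. The arrays were labelled by random priming of total RNA, and a probe set that names a microRNA gene reads the primary or precursor transcript at that place, not the mature strand.

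The probe sets were of 3 kinds. Of the 41345, 23521 name exactly 1 gene and cover 22180 genes, 1820 name several genes and 16004 carry no symbol in the annotation used. Levels are log2 values after robust multi-array averaging (RMA), from 1.35 to 13.74, so that a difference of 1 is 2-fold. The 10 μg pools correlated with each other at an r of 0.982 to 0.983 across probe sets, with the control pools at 0.971 to 0.981, and the control pools with each other at 0.988 to 0.991. The median standard error of a difference was 0.118, and the 95% confidence interval excluded a 2-fold change either way for 89.0% of the probe sets.

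A selection of the microRNAs described below is shown by their mature strands, with the seeds that some of them share. Of 483 microRNA precursors with a probe set of their own, 420 had a mature sequence in the RefSeq table (build GRCm38.p6). The 483 were taken by symbol and include the long host transcripts Mir124-2hg, Mir9-3hg, Mir99ahg, Mir100hg and Mir1a-1hg, which are not precursors. The first set comes from 5 precursors on the plus strand of chromosome 12, in the imprinted region between Dlk1 and Dio3, and each was past a 2-fold difference. Capitals mark the seed.
miR-493-5p: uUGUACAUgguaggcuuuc
miR-493-3p: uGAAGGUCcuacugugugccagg
miR-300-5p: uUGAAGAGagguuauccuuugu
miR-300-3p: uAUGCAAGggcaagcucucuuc
miR-370-5p: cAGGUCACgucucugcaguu
miR-370-3p: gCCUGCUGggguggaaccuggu
miR-494-5p: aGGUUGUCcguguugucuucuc
miR-494-3p: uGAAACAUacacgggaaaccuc
miR-380-5p: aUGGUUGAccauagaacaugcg
miR-380-3p: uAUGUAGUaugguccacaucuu

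The second set comes from microRNAs known from retina and brain. The strands of miR-181a and miR-181b share a seed, likewise those of let-7c and let-7d, and those of miR-204 and miR-211.
miR-181a-5p: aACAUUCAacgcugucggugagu
miR-181b-5p: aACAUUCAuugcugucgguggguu
let-7c-5p: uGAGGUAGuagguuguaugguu
let-7d-5p: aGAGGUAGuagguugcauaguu
miR-204-5p: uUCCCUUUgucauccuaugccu
miR-211-5p: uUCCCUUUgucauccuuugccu
miR-128-3p: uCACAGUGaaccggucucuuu

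The hairpins of 2 of them, with the mature strands in capitals, give the piece of transcript that surrounds these strands. Mir493 lies at chr12:109580233-109580315 and Mir181a-1 at chr1:137966455-137966541, both on the plus strand of GRCm38.p6.
Mir493 hairpin: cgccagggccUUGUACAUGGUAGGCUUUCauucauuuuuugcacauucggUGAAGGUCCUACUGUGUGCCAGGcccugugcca
Mir181a-1 hairpin: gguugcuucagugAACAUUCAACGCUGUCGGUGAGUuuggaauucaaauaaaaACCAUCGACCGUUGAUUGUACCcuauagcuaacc

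Across all probe sets, 2 fell after 10 μg and 0 rose by the adjusted test (limma fitted to the 9 arrays, p adjusted by Benjamini-Hochberg over 41345 probe sets, threshold 0.05), which is 0.00484% of those tested. The named one is 1700071K01Rik, a protein-coding gene of chromosome 11 whose function is not known. Its level was 7.14, 7.27 and 7.28 in the 10 μg pools, against 8.55, 8.73 and 8.72 in the control pools. Every 10 μg pool lay below every control pool, and the log2 difference was -1.43 (standard error 0.113, adjusted p = 0.0344 from limma), or 0.370-fold. The 1 μg pools, at 8.11, 7.81 and 7.71, lay between these groups. Without any 1 control pool the adjusted p of 1700071K01Rik was 0.0888 to 0.190, above the threshold of 0.05, and with only the 6 arrays compared 194 probe sets were below it. The other probe set carries no symbol and stood at 5.72, 5.97 and 5.49 in the 10 μg pools, against 7.13, 7.25 and 7.11 in the control pools (log2 difference -1.43, adjusted p = 0.0344 from limma).

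A much larger number of probe sets lay just short of that threshold. With an adjusted p below 0.1 from limma, 567 probe sets were higher (1.37%) and 495 lower (1.2%), 2.57% together, and at an unadjusted p below 0.05 the counts were 3611 higher and 3608 lower, 8.73% each and 17.5% together. Among the 22180 genes, each taken by its brightest probe set of its own, 55.2% had a value above control, 8.9% were higher and 4.88% lower at that unadjusted p, and 0.739% were higher and 0.419% lower at an adjusted p below 0.1. In 13.3% of the genes all 10 μg pools lay above all control pools, and in 8.35% all lay below. The share of higher genes at that unadjusted p also varied with level. In equal groups from the dimmest to the brightest genes it was 9.04%, 3.43%, 6.24%, 11.5% and 14.4%, and the lists below were not matched for level. These shares are the background against which the gene groups below are read, and the groups are described by counts and medians without a test of their own.

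By the thresholds that the study states for its arrays, a fold change over 2 with an unadjusted p below 0.05, 442 probe sets were higher (1.07%) and 269 lower (0.651%). The 3 kinds of probe set differed in direction. Of those naming 1 gene, 62 were higher (0.264%) and 26 lower (0.111%), of those naming several genes 195 were higher (10.7%) and 0 lower, and of those without a symbol 185 were higher (1.16%) and 243 lower (1.52%). Among the genes themselves 43 were higher (0.194%) and 24 lower (0.108%) by these thresholds. The study also reports a list of genes at this dose by these thresholds, and the lists were not compared. Without a symbol, 14.5% were lower and 6.59% higher at an unadjusted p below 0.05, and the plot of difference against level shows this excess on the lower side.

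**Figure D1:**
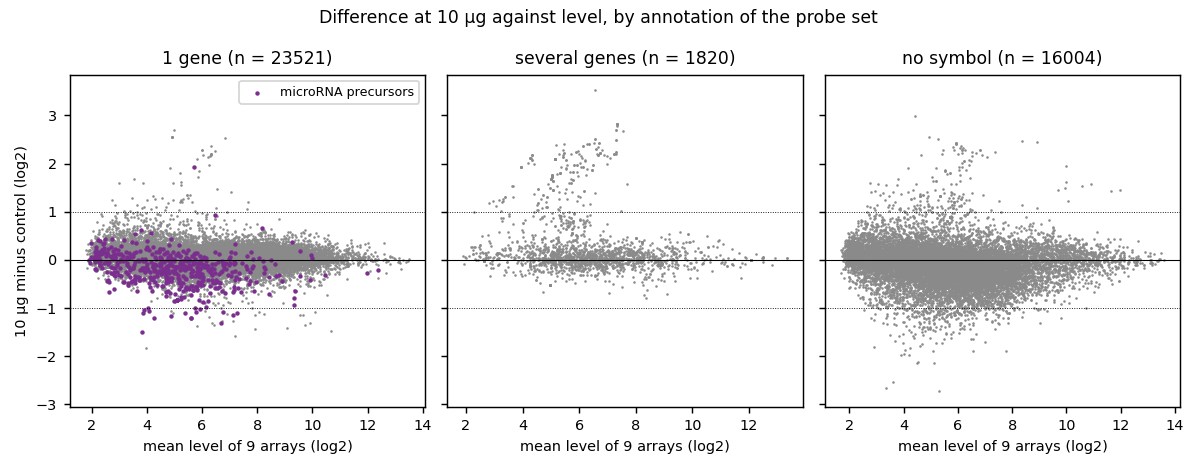
Log2 difference between 10 μg and control (vertical) against the mean level of all 9 arrays (horizontal) for each probe set, in panels for probe sets naming 1 gene, several genes and no symbol. Dotted lines mark a 2-fold difference. Purple points in the first panel are every probe set of the 483 genes taken as microRNA precursors by symbol, a few long host transcripts among them. They lie mostly below 0, and the median of the 483 is -0.15.

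MicroRNA precursors read by a probe set of their own were mostly lower after 10 μg. Of the 483, 345 had a value below control, 124 of them at an unadjusted p below 0.05 (25.7%, against 4.88% of all genes), and 15 were higher at that p (3.11%, against 8.9%). The median difference was -0.15, against 0.02 for all genes. Without the host transcripts named above, 343 of 478 were below control, with a median of -0.16. All 10 μg pools lay below all control pools for 133 precursors and above for 20. The medians of the list in the 10 μg pools were -0.12, -0.16 and -0.15 from the control mean, against 0.01, 0.00 and -0.01 in the control pools, so the groups did not overlap. At an adjusted p below 0.1 from limma, 29 precursors were lower (against 0.419% of all genes) and 2 higher, with 0 at the threshold of 0.05. The precursors are dimmer than other genes, with a median control level of 4.98 against 6.29, and the brighter of them (242) had a median of -0.22 with 82 lower and 4 higher at an unadjusted p below 0.05, against -0.08 with 42 lower and 11 higher in the dimmer 241. A further 138 probe sets name several genes with a microRNA among them. Their median was -0.02, with 16 lower and 9 higher at an unadjusted p below 0.05 and 53 above control.

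Of the lower precursors, those between Dlk1 and Dio3 on chromosome 12 stood out. The region is imprinted: in mammals the noncoding RNAs, among them Meg3, Rian, the small nucleolar RNAs and the microRNAs, come from the maternal chromosome, and the coding genes Dlk1 and Dio3 mainly from the paternal one. Of 39 microRNA precursors listed for this cluster, 37 had a value below control, 28 of them at an unadjusted p below 0.05 and 0 above control at that p. The median was -0.53, or 0.692-fold. In the 10 μg pools the list stood at -0.50, -0.56 and -0.53 from the control mean, against -0.09, 0.02 and 0.05 in the control pools.

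Mir493 was at 5.11, 5.56 and 5.38 in the 10 μg pools, against 6.41, 6.21 and 6.49 in the control pools. The pools did not overlap, and the difference was -1.02 (standard error 0.152, adjusted p = 0.062 from limma). Mir300 was at 4.49, 3.90 and 4.44 in the 10 μg pools, against 5.31, 5.54 and 5.49 in the control pools (difference -1.17, adjusted p = 0.062 from limma). Mir370 was at 3.23, 3.69 and 3.40 in the 10 μg pools, against 4.52, 4.53 and 4.43 in the control pools (difference -1.05, adjusted p = 0.0706 from limma). For both precursors the groups were again separate. Mir494 was at 5.26, 4.46 and 4.36 in the 10 μg pools and at 5.97, 5.55 and 5.90 in the control pools, a difference of -1.11. Mir377, at -0.85, and Mir667, at -0.58, also had every 10 μg pool below every control pool. Mir380 was at -1.03 by its brighter probe set and at 0.18 by a dimmer one.

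Lower values ran through the noncoding part of the region. Of 55 genes measured between Dlk1 and Dio3, in RefSeq order, 50 had a value below control, and 34 were lower at an unadjusted p below 0.05. Rian, the long noncoding host of small nucleolar RNAs and microRNAs, was at 8.42, 8.37 and 8.50 in the 10 μg pools, against 8.76, 8.78 and 8.88 in the control pools, a difference of -0.37 (adjusted p = 0.103 from limma). Of 6 small nucleolar RNAs, 5 were below control. AF357425 was at -1.13, AF357426 at -0.70 and DQ267101 at -0.70, while DQ267102 was at 0.02. The noncoding RNA Meg3 was at -0.28 (adjusted p = 0.372 from limma). At the ends, the Notch ligand homologue Dlk1 was at -0.20 and Dio3, the deiodinase that inactivates thyroid hormone, at -0.00. AF357425, AF357426, DQ267101, DQ267102, Meg3, Dlk1 and Dio3 were chosen after their values were seen. Chromosome 12 was the only one among the autosomes and X on which more genes were lower (78) than higher (44) at an unadjusted p below 0.05, and 34 of those 78 are genes of this region.

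**Figure D2:**
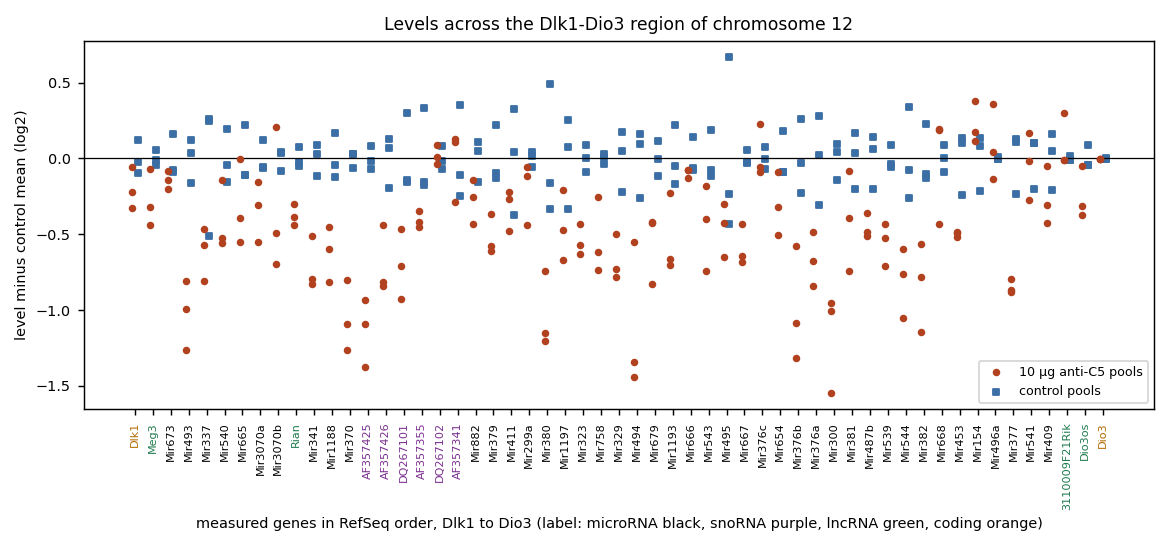
Level minus the control mean (log2, vertical) of the 55 measured genes from Dlk1 to Dio3 in RefSeq order (horizontal), with 1 point for each pool, 10 μg pools as circles and control pools as squares. Most microRNAs and 5 of the 6 small nucleolar RNAs lie below the line, by up to 1.17 on average for Mir300, while Dio3 at the right end lies on it.

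Precursors outside the list of 39 followed the same direction with smaller medians. They include Mir3070a, Mir3070b, Mir666 and Mir496a, which lie between Dlk1 and Dio3 but are not in that list. Of the precursors outside the list, 302 lie within the span of another gene and 142 within none, the host transcripts named above among the 142. Of the 302, 79 were lower and 6 higher at an unadjusted p below 0.05, with a median of -0.17, and of the 142, 17 were lower and 9 higher, with a median of -0.03. Of 57 spanning genes measured for a lower precursor, 5 were lower and 3 higher at that p, with a median of -0.01. Mir128-1, a neuronal microRNA inside R3hdm1, was at 4.89, 4.71 and 4.56 in the 10 μg pools, against 5.45, 5.60 and 5.43 in the control pools, a difference of -0.77 with separate groups (adjusted p = 0.062 from limma), while R3hdm1 was at -0.06. Mir677, inside the ATP synthase gene Atp5b, was at -0.64, and Atp5b was at 0.01.

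Of the genes with a probe set of their own that span 5 or more precursors, Sfmbt2, a Polycomb-family gene, spans the most. Spanning genes without such a probe set, among them Rtl1 and Mirg between Dlk1 and Dio3, were left out here. Of 22 precursors in its span, 11 were lower and 1 higher at an unadjusted p below 0.05, with a median of -0.56, and Sfmbt2 itself was at -0.20 (unadjusted p = 0.0247). Of the 5 precursors within each of the other such genes, the median was -0.60 in A230057D06Rik (4 lower at that p), -0.20 in Clcn5 (1 lower), 0.02 in Htr2c (1 lower) and 0.12 in Larp7 (1 lower), with 0 higher in each. Mir466g was at 3.73, 2.42 and 3.73 in the 10 μg pools, against 5.03, 4.57 and 4.75 in the control pools. That is a difference of -1.49 with separate groups (adjusted p = 0.121 from limma). Mir669m-1 was at -1.15 and Mir297a-4 at -1.07. In the other direction, 5 of the 22 were above control, among them Mir467e at 0.65, Mir467d at 0.42 and Mir297b at 0.39. These precursors are near copies of each other, so their probe sets are not independent readings. The wider list of Mir297, Mir466, Mir467 and Mir669 precursors had a median of -0.48 with 12 of 24 lower and 1 higher at an unadjusted p below 0.05. Its median was -0.03 for 10 μg minus 1 μg and -0.31 for 1 μg minus control.

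Members of the miR-181 family, whose shared seed is printed above, are abundant in the inner retina. Mir181a-1 was at 4.91, 4.58 and 5.36 in the 10 μg pools, against 6.04, 6.27 and 6.14 in the control pools. The groups were separate, with a difference of -1.20 (standard error 0.191, adjusted p = 0.062 from limma). Mir181b-1, next to it on chromosome 1, was at -0.94, and Mir181a-2 and Mir181b-2 on chromosome 2 were at -0.47 and -0.38. All of these 4 were lower at an unadjusted p below 0.05, while Mir181c was at -0.07 and Mir181d at -0.05. Whether these precursors of one seed differ from each other was not tested. The families named in this and the next paragraph, apart from let-7, were chosen after their values were seen.

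Of 9 Mir344 precursors, which also share seeds, 6 were lower at an unadjusted p below 0.05, with a median of -0.59. Mir204, the microRNA of pigment epithelium and Müller glia that lies within Trpm3, was at 4.39, 4.77 and 5.68 in the 10 μg pools, against 6.01, 6.24 and 6.21 in the control pools, a difference of -1.21 (adjusted p = 0.123 from limma). Trpm3 was at -0.27 and Mir211, which has the same seed as Mir204, at -0.33. In the let-7 family, which marks differentiated cells, Mirlet7c-2 was at -1.21 (adjusted p = 0.0654 from limma) and Mirlet7d at -0.66, while the list of 11 let-7 precursors had a median of only -0.10 with 2 lower at an unadjusted p below 0.05. Mir182, of the sensory organ cluster that photoreceptors express strongly, was at -0.48 (unadjusted p = 0.0101 from limma), and its neighbours Mir183 and Mir96 were at -0.13 and -0.10. Mir124a-2 and Mir124a-3, precursors of the main neuronal microRNA, were at -0.30 and -0.41, and the 3 Mir9 precursors at -0.17, -0.06 and -0.11, none of them at an unadjusted p below 0.05. Of the inflammatory and glial microRNAs, Mir146 was at 0.34 and Mir132 at -0.18.

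Other lower precursors past the thresholds of the study were Mir701 (-1.31), Mir690 (-1.09), Mir876 (-1.11), Mir669a-3 (-1.10) and Mir190b (-1.01). In the other direction, 1 precursor was past them. Mir101c was at 6.90, 7.05 and 5.95 in the 10 μg pools, against 4.90, 4.59 and 4.63 in the control pools, which is 3.80-fold (log2 difference 1.92, adjusted p = 0.062 from limma).

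**Figure D3:**
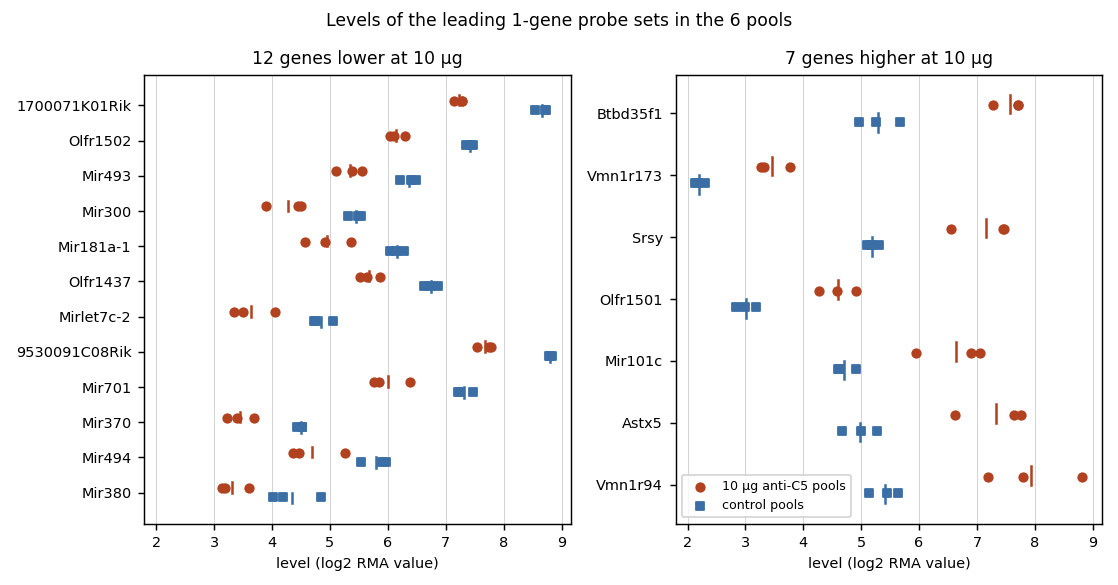
Levels (log2 RMA values, horizontal) in each 10 μg pool (circles) and each control pool (squares) for the 1-gene probe sets with the smallest p among those past a fold change of 2, lower on the left and higher on the right. Vertical ticks are group means; the groups are separate in every row, and 8 of the 12 genes on the left are microRNA precursors.

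Small nucleolar RNAs, which guide the modification of ribosomal RNA, mostly went the other way. Of 78 measured, taken by the symbols Snora, Snord and Scarna, 26 were higher and 8 lower at an unadjusted p below 0.05. The median was 0.20, and the shares of 33.3% and 10.3% were both above the 8.9% and 4.88% of all genes. These symbols leave out the 6 small nucleolar RNAs between Dlk1 and Dio3. Among the 80 genes matched by gene identifier to a small nucleolar RNA of RefSeq, which include 5 of those 6, 23 were higher (28.8%) and 12 lower (15%). Their median was 0.12. Snord13 was at 6.52, 6.66 and 6.42 in the 10 μg pools, against 5.82, 5.68 and 5.56 in the control pools, a difference of 0.85 with separate groups (adjusted p = 0.066 from limma). Snord99 was at 0.54 and Snord35a at 0.63. Snora30 was at -0.64 (adjusted p = 0.062 from limma).

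Long nuclear RNAs and splicing factors were mostly lower. Of 14 long noncoding RNAs that stay in the nucleus or are imprinted, 6 were lower and 2 higher at an unadjusted p below 0.05. These are 42.9% and 14.3%, against 4.88% lower and 8.9% higher among all genes, so both shares were above the background. The median was -0.28, and the members named here are all from the lower side. Snhg11 was at 9.08, 9.04 and 8.86 in the 10 μg pools, against 9.63, 9.53 and 9.67 in the control pools, a difference of -0.62 (adjusted p = 0.0941 from limma). Ftx, from the X inactivation centre and host of Mir374b, was at -0.53, and Miat, a nuclear RNA of neurons and retinal cells, at -0.52. All of these had separate groups.

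Of 28 splicing factors and nuclear speckle components, 27 had a value below control, 15 of them at an unadjusted p below 0.05 (53.6%, against 4.88% of genes) and 0 higher, with a median of -0.23. For 19 of the 28 every 10 μg pool lay below every control pool. Luc7l, a U1 small nuclear ribonucleoprotein component, was at 8.83, 8.65 and 8.65 in the 10 μg pools, against 9.06, 9.03 and 9.08 in the control pools (difference -0.34, adjusted p = 0.0838 from limma). Clk1, a kinase of splicing factors, was at -0.43, the SR protein gene Srsf1 at -0.33 and Hnrnpa2b1 at -0.38. A dimmer probe set of Srsf1 was at 0.18 (unadjusted p = 0.0722 from limma).

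Syne1, which encodes the giant nuclear envelope protein nesprin-1, could be read by 59 probe sets of its own. All 59 were below control, with a median of -0.40, and 53 were lower at an unadjusted p below 0.05. The brightest was at 10.11, 10.10 and 9.90 in the 10 μg pools, against 10.51, 10.49 and 10.64 in the control pools, a difference of -0.51 (adjusted p = 0.0923 from limma), and the difference with the smallest p was -0.64 (adjusted p = 0.062 from limma). These are 59 readings of 1 gene in the same pools. The 11 genes of its list, nesprins, SUN proteins and lamins, had a median of 0.00, with 1 lower and 0 higher at an unadjusted p below 0.05.

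Genes of ribosomes and of the respiratory chain were more often higher than lower. Of 58 cytosolic ribosomal protein genes, 26 were higher and 1 lower at an unadjusted p below 0.05 (44.8%, against 8.9% of genes), with a median of 0.21, and 5 had an adjusted p below 0.1. The 10 μg pools lay at 0.21, 0.21 and 0.22 from the control mean, against 0.01, 0.02 and -0.02 in the control pools. Rps19, of the small subunit, was at 8.51, 8.39 and 8.80 in the 10 μg pools, against 8.06, 7.91 and 7.99 in the control pools, a difference of 0.58 with separate groups (adjusted p = 0.0654 from limma). A dimmer probe set of Rps19 was at 0.02. Rpl8 and Rpl35, of the large subunit, were both at 0.44 and Rps9 at 0.38. Of the dimmer probe sets of Rpl35, one was at 0.47 and one at -0.01. Ribosomal protein genes have many processed copies in the genome, and part of a signal can come from them.

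Of 85 nuclear genes of the respiratory chain, 20 were higher and 0 lower at an unadjusted p below 0.05. That is 23.5%, against 8.9% of genes, with a median of 0.10. Among bright protein-coding genes with the shortest spans, described below, 20.6% were higher, with a median of 0.09. Whether the list differs from such genes was not tested. Ndufb9, a subunit of complex I, was at 9.32, 9.33 and 9.45 in the 10 μg pools, against 8.92, 8.97 and 8.88 in the control pools, a difference of 0.44 (adjusted p = 0.0852 from limma). Ndufa2 was at 0.53, Ndufa7 at 0.37 and the assembly factor Ndufaf3 at 0.37. Mitochondrial ribosomal proteins had a median of 0.07 with 12 of 71 higher (16.9%) and 1 lower. Proteasome subunits had one of 0.08 with 6 of 38 higher (15.8%) and 0 lower. The catalytic subunit Psmb5 was at 0.46 and Psma7 at 0.41. Of 18 genes of antioxidant defence 8 were higher (44.4%) and 0 lower, with a median of 0.19.

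**Figure D4:**
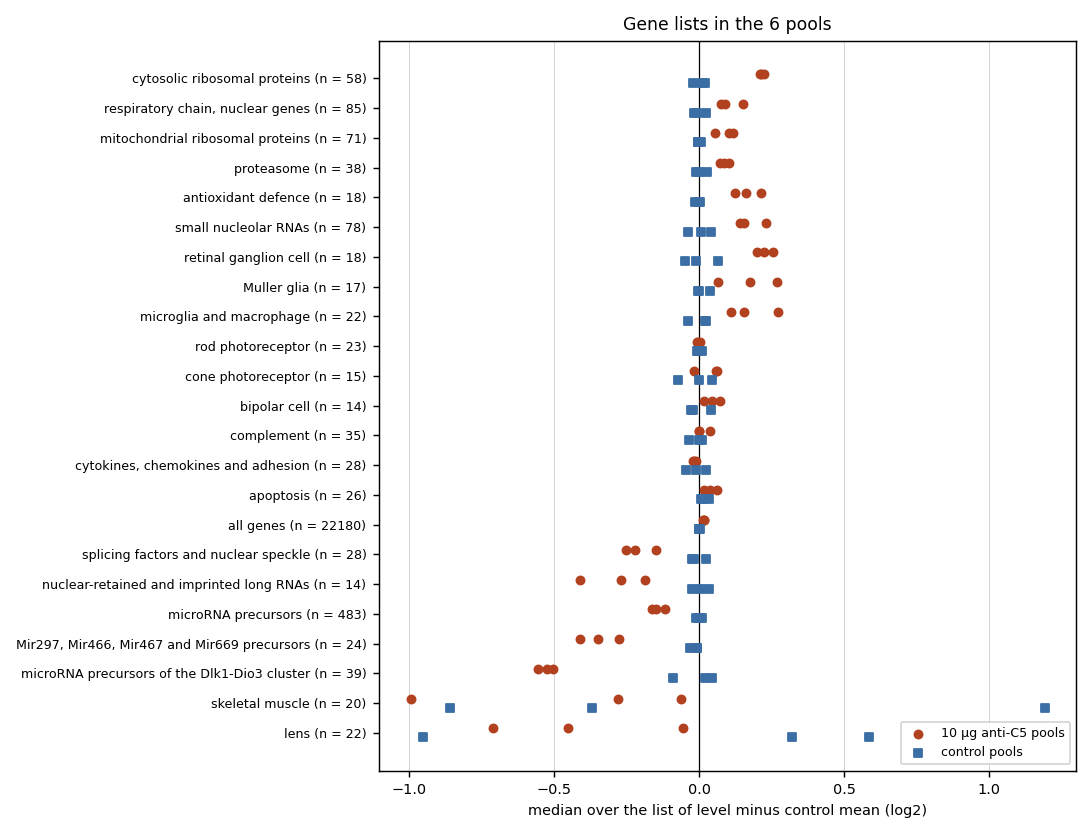
Median over the genes of each list of the level minus the control mean (log2, horizontal), in each 10 μg pool (circles) and each control pool (squares), with the number of genes measured. The pools separate for ribosomal proteins, small nucleolar RNAs, splicing factors and microRNA precursors, lie close to 0 for rods and complement, and overlap widely for lens and skeletal muscle.

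Protein-coding genes also differed by the length of genome they span. Among those brighter than the median gene, 430 of the 2086 with the shortest spans (up to 8961 bases) were higher and 65 lower at an unadjusted p below 0.05, with a median of 0.09. Of the 2086 with the longest spans (from 81940 bases), 132 were higher and 146 lower, with a median of 0.00. The 3 groups between them had medians of 0.05, 0.03 and 0.01, with 280, 220 and 183 genes higher and 65, 105 and 131 lower in order of growing span. Gria2, the glutamate receptor subunit that makes AMPA receptors impermeable to calcium, was lower at an unadjusted p of 0.00185, at 9.71, 9.61 and 9.51 in the 10 μg pools and 10.02, 10.19 and 10.22 in the control pools (difference -0.54, adjusted p = 0.0923 from limma). Its list of 44 glutamate, GABA and glycine receptors had 6 higher and 6 lower.

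**Figure D5:**
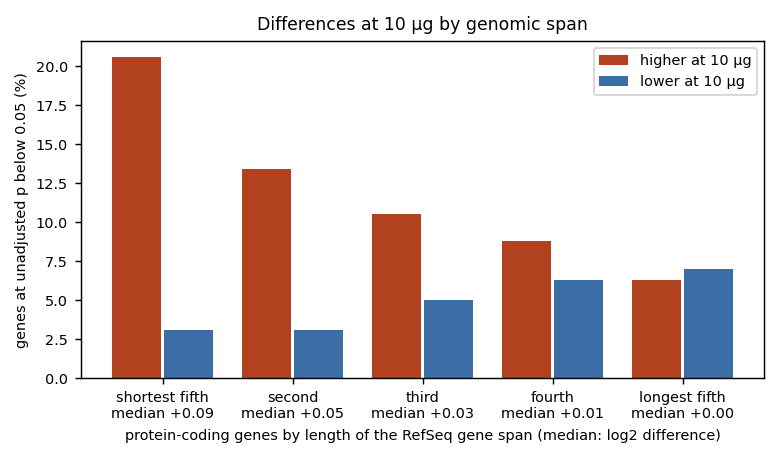
Share of protein-coding genes (vertical, percent) that were higher or lower at 10 μg at an unadjusted p below 0.05, in 5 groups of the genes brighter than the median by the length of their RefSeq span (horizontal), with the median log2 difference under each group. The share of higher genes is 20.6% in the group of shortest spans and 6.33% in the longest, and that of lower genes 3.12% and 7.00%.

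Retinal cell types were checked through their markers, and the samples carried them at high levels. Gnat1, the rod transducin, was at 13.51, 13.53 and 13.52 in the 10 μg pools and at 13.49, 13.52 and 13.52 in the control pools. The 23 rod genes had a median of -0.01 with 1 higher and 0 lower at an unadjusted p below 0.05, the 15 cone genes one of 0.01 and the 14 bipolar cell genes one of 0.06. Arr3, the cone arrestin, was at 9.75, 9.65 and 9.87 in the 10 μg pools, against 10.09, 10.25 and 10.15 in the control pools, a difference of -0.41 (unadjusted p = 0.00292, adjusted p = 0.106 from limma), while the short-wave opsin gene Opn1sw was at 0.12.

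Of 18 ganglion cell genes 8 were higher (44.4%, against 8.9% of all genes) and 0 lower at an unadjusted p below 0.05. Their median was 0.22. Sncg was at 10.01, 9.92 and 9.81 in the 10 μg pools, against 9.32, 9.47 and 9.60 in the control pools, a difference of 0.45 with separate groups (adjusted p = 0.137 from limma). The membrane protein gene Thy1 was at 0.29, and the pan-ganglion marker Rbpms was at 0.03. Müller glia had 5 of 17 higher (29.4%) and 0 lower, with a median of 0.15, led by Gpr37, a receptor for prosaposin. Gpr37 was at 9.95, 10.03 and 10.07 in the 10 μg pools, against 9.63, 9.72 and 9.70 in the control pools. The difference was 0.33 (adjusted p = 0.0723 from limma). Glul, the glutamine synthetase of these cells, was at 0.02.

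Microglia and macrophage genes had 8 of 22 higher (36.4%, against 8.9% of all genes) and 0 lower, with a median of 0.16. Csf1r, the receptor that keeps microglia alive, was at 6.28, 6.79 and 6.44 in the 10 μg pools, against 5.98, 6.08 and 5.97 in the control pools (difference 0.49, adjusted p = 0.132 from limma). The replicate 2 pool at 10 μg was the highest of the 6 for Csf1r and also for Ly86, at 8.35. Aif1 was at -0.05. Gfap, the intermediate filament of reactive glia, stood at 7.24, 7.53 and 6.57 in the 10 μg pools, against 6.55, 6.23 and 6.34 in the control pools. The lowest 10 μg pool lay just above the highest control pool (difference 0.74, unadjusted p = 0.0183, adjusted p = 0.193 from limma).

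For the complement system, the target of the antibody, 35 genes were measured, with a median of -0.01, 2 higher and 3 lower at an unadjusted p below 0.05. Hc, which encodes C5 itself, was at 4.11, 4.47 and 4.47 in the 10 μg pools and at 4.43, 4.47 and 4.47 in the control pools, a low level with no separation. C5ar1, the receptor of C5a, was at 4.22, 4.63 and 4.75 in the 10 μg pools, against 4.86, 4.96 and 5.04 in the control pools, also a low level but with separate groups (difference -0.42, adjusted p = 0.165 from limma). Cd46, a regulator that limits complement on the cell's own membrane, was at -0.46, and C1qb, a chain of the recognition molecule C1q that microglia make, at 0.46. Cytokines, chemokines and adhesion molecules had a median of -0.03 with 4 of 28 higher (14.3%, against 8.9% of genes) and 0 lower. Apoptosis genes had one of 0.04 with 5 of 26 higher (19.2%) and 1 lower. Casp8, the initiator caspase of death receptors, was at 0.43 (adjusted p = 0.0972 from limma).

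Probe sets of repeated gene families were brighter after 10 μg. These genes are mostly expressed in the testis or the vomeronasal organ, and each such probe set reads many near copies. The 28 probe sets that name several Ssty genes of the Y chromosome had a median of 2.06 and all were past the thresholds of the study, and the 39 that name Sly had one of 1.77. Of 44 that name several type 1 vomeronasal receptors, 36 were past them, with a median of 1.98, and 42 of Pramel genes had a median of 0.64. Many of these hold identical values, with 20 distinct sets of values among the 28 and 12 among the 39, so the counts repeat measurements. At 1 μg the medians from control were 1.34 for Ssty, 1.13 for Sly, 1.37 for type 1 vomeronasal receptors and 0.27 for Pramel. The pools were uneven. For Ssty they lay at 1.53, 0.60 and 1.97 from the control mean at 1 μg, and at 2.27, 2.51 and 1.44 at 10 μg.

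Among probe sets of 1 gene, Btbd35f1, an X-linked member of such a family, was at 7.71, 7.71 and 7.28 in the 10 μg pools, against 4.97, 5.25 and 5.68 in the control pools (difference 2.27, adjusted p = 0.062 from limma). Astx5 was at 2.36 by its probe set with the smallest p, Vmn1r94 at 2.53 and the Y-linked Srsy at 1.97 to 2.29 over the 6 of its probe sets with the smallest p. For Srsy and Astx5 the replicate 3 pool was the lowest of the 10 μg pools, at 6.62 for Astx5 beside 7.63 and 7.75, and it still lay above every control pool. Single-copy Y genes had a median of -0.07, and Eif2s3y, a translation initiation factor, was at 8.55, 8.67 and 8.44 in the 10 μg pools, against 9.05, 9.19 and 9.12 in the control pools (difference -0.57, adjusted p = 0.062 from limma).

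Chemosensory receptors read by a probe set of their own were dim and slightly higher. Of 1105 olfactory receptors 168 were higher and 16 lower at an unadjusted p below 0.05 (15.2% and 1.45%), with a median of 0.14, and of 176 type 1 vomeronasal receptors 46 were higher and 0 lower, with a median of 0.19. With dim probe sets left out, the olfactory median was -0.00 and the type 1 vomeronasal median 0.30. Of the olfactory receptors, Olfr1502 was at 6.29, 6.03 and 6.10 in the 10 μg pools, against 7.42, 7.34 and 7.47 in the control pools. Its difference was -1.27 (adjusted p = 0.062 from limma). Olfr1501, on the same chromosome 19, was at 4.59, 4.92 and 4.27 in the 10 μg pools, against 2.84, 3.18 and 2.99 in the control pools. Its difference was 1.59 (adjusted p = 0.062 from limma).

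Tissue next to the retina differed between pools. Cryaa, the main lens crystallin, was at 9.32, 11.79 and 9.13 in the 10 μg pools and at 12.93, 13.20 and 8.56 in the control pools, and the 22 lens genes had medians of -0.45, -0.06 and -0.71 in the 10 μg pools and of 0.32, 0.58 and -0.95 in the control pools. The muscle myosin gene Myh4 was at 9.32 in control replicate 1 and at 4.73 to 6.07 in the other 5 pools. Krt15, a keratin of surface epithelium, was at 9.04 in replicate 1 at 10 μg and at 4.82 to 5.82 in the others. Rpe65, of the pigment epithelium, was at 8.01, 9.01 and 8.83 in the 10 μg pools and at 7.94, 8.19 and 7.85 in the control pools. The part of this tissue in the results above was not tested.

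Between the doses, 0 probe sets passed the adjusted test (limma, 10 μg against 1 μg), and 4480 had an unadjusted p below 0.05 (10.8%), 1546 higher (3.74%) and 2934 lower (7.1%) at 10 μg. The Dlk1-Dio3 precursors had a median of -0.39 for 10 μg minus 1 μg and the splicing factors one of -0.21, against -0.01 for all genes. Ribosomal proteins were at 0.12, ganglion cell genes at 0.04 and small nucleolar RNAs at 0.05. The 1 μg pools were not alike: for the Dlk1-Dio3 precursors they lay at 0.06, -0.25 and -0.26 from the control mean, with replicate 1 above the control pools and the other two below them, and for ribosomal proteins at 0.01, 0.20 and 0.18. Each 1 μg value shares its control arrays with the 10 μg comparison.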

How the data were processed

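Total RNA of 9 pools was labelled and hybridised to Affymetrix Mouse Gene ST arrays; the methods of the study name the 1.0 ST array, while the probe set identifiers are annotated here to a later one. The deposited log2 values were made by the authors with RMA (background correction, quantile normalization and median polish) in Affymetrix Expression Console 1.1, and quantile normalization gives all arrays nearly the same distribution, so a shift of most transcripts would not be seen. Gene symbols came from the platform annotation, and biotypes, gene spans and gene order from RefSeq (GRCm38.p6), of which no array coordinates were used.

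The groups were compared by limma (version 3.58.1, under R 4.3.3), fitted to the 9 arrays with the default empirical Bayes prior, two-sided, with Benjamini-Hochberg adjustment over all 41345 probe sets. No filter on level was applied. The steps were tested on simulated data. Array values have no read depth, and the number of arrays limits the precision. Gene lists were described by each gene's brightest probe set of its own. The members and lists were chosen with earlier results of these data known. Named genes are those past the adjusted test, the 12 in each direction with the smallest p among those past the thresholds of the study, the 4 of each list with the smallest p, microRNA precursors past the thresholds, and a set of markers and complement genes; genes outside this rule were chosen after their values were seen. R3hdm1, Atp5b, Sfmbt2 and Trpm3 are named as genes that span a precursor, and spans were compared on either strand. Tables and figures were made in Python 3.11.15 with pandas 2.3.3 and matplotlib 3.10.9. The alternatives were the 6 arrays alone, other sets of probe sets, other priors and weights, a replicate block, 2 further normalizations and each array left out.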

Additional observations from a re-analysis of the deposited data

How the results depend on the processing

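The count of 2 probe sets by the adjusted test depends on the settings, and the thresholds of the study depend less on them. It was 194 with only the 6 arrays compared (68 higher, 126 lower), 5 with only probe sets that have a symbol (4 higher, 1 lower), 1 with probe sets of 1 gene, 394 with dim probe sets left out, 386 with an intensity trend, 0 with an ordinary linear model, 456 with the array medians aligned (283 higher, 173 lower), 21 with cyclic loess and 1062 at an adjusted p below 0.1. It stayed at 2 with a robust prior, with array weights and with identical probe sets counted once. With the replicate numbers as a block it was 0. Over all probe sets, deviations of equally numbered 10 μg and control pools correlated at 0.0208, 0.0294 and -0.00229. For equally numbered 10 μg and 1 μg pools the values were 0.0579, -0.0868 and -0.105. Whether equally numbered pools share a batch was not tested. Leaving out 1 array gave 0 to 500, with 500 without replicate 3 at 10 μg, 366 and 337 without replicates 1 and 2 at 1 μg, 4 without replicate 2 at 10 μg, 1 without control replicate 1 or 3, and 0 when control replicate 2, the first 10 μg pool or the third 1 μg pool was dropped. The cause of these differences was not tested. 1700071K01Rik stayed lower throughout, with an adjusted p of 0.0109 to 0.190 from limma, and was above 0.05 with the ordinary model (0.163), the block (0.128) and without any 1 control pool, replicates 1 or 2 at 10 μg or replicate 3 at 1 μg. The count past a fold change of 2 with an unadjusted p below 0.05 was 711 (62.2% higher); it was 260 with dim probe sets left out, 286 with only probe sets that have a symbol (90.6% higher) and 91 with probe sets of 1 gene, and 683 to 1003 with 1 array left out. The 10 μg to 1 μg count was 0, and 0 to 1 with 1 array left out. Aligning the medians moved the median of all probe sets by 0.04. Over 18 alternatives each, the medians of the microRNA precursors (-0.25 to -0.11), the Dlk1-Dio3 precursors (-0.57 to -0.49), the splicing factors (-0.28 to -0.16) and the cytosolic ribosomal proteins (0.19 to 0.25) kept their sign. The skeletal muscle median ranged from -0.82 to 0.22. Of 5949 values of named genes under an alternative, 189 moved to an adjusted p below 0.05 and 8, all of 1700071K01Rik, moved above it. A further 8 values, none of them past the test, changed sign when 1 array was left out (Acta1, Mylpf and Tnnt3 without control replicate 1, Hc, Krt14, Krt15 and Krt4 without replicate 1 at 10 μg, and Mup5 without replicate 3 at 10 μg), and 5744 did neither.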

Other observations

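Of 80 potassium channel genes 10 were higher (12.5%) and 1 lower (1.25%) at an unadjusted p below 0.05, with a median of 0.04. Among all genes 8.9% were higher and 4.88% lower. Kcna5 was at 0.28 and Kcna4 at -0.35, both with separate groups of pools, while a dimmer probe set of Kcna4 was at -0.05. Of 22 synaptic vesicle genes 8 were higher (36.4%) and 0 lower. The complexins Cplx1 and Cplx2, which control vesicle fusion, were at 0.43 and 0.32. Of 44 collagen chains 1 was higher (2.27%) and 6 lower (13.6%), and the basement membrane chains Col4a1 and Col4a2 were at -0.60 and -0.54. As given above, 2 of the 3 control pools had high lens crystallin levels. Whether the differences of these collagen chains depend on lens tissue was not tested. The clock gene Per3 was at -0.35 in a list of 18 clock genes with 0 higher and 1 lower.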
